A study of Arabidopsis thaliana with 48 samples.

Results

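Cytochrome P450 genes make up one of the largest enzyme families of Arabidopsis thaliana, and 107 of them are described here in the aerial parts of wild-type, gi-2 and aba1-6 plants under drought and normal watering. They are the rows of the count table whose name has the standard form of a P450 (CYP, family number, subfamily letter, member number), without the 4 abscisic acid (ABA) 8'-hydroxylases CYP707A1 to CYP707A4, and with a mean of at least 1 CPM (the count of a gene scaled to the size of its library) over the 48 libraries. Of 26988 rows, 213 had such a name, and 107 reached that level. The other 106 lay below it, and 18 of them were at 0 in every library. The members just inside the limit were CYP96A9 (1.106 CPM), CYP86C3 (1.13 CPM) and CYP94B3 (1.142 CPM), and those just outside were CYP78A7 (0.9908 CPM), CYP705A25 (0.9393 CPM) and CYP705A5 (0.9234 CPM). A further 22 P450 genes are listed under other names, such as C4H, AOS, CPD, DWF4 and PAD3, and 16 of these reached 1 CPM. They are not among the 107 and appear below only as pathway partners.

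P450 enzymes are haem proteins, mostly anchored in the endoplasmic reticulum, that use electrons from a P450 reductase to insert 1 atom of oxygen into a substrate. In plants they carry out steps of hormone synthesis and breakdown, of lignin, cutin and suberin formation, and of the defence chemistry of glucosinolates, camalexin and terpenes. The family number groups proteins by sequence, and members of 1 family often lie side by side in the genome but act in different pathways.

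The study grew 3 genotypes: gi-2, a mutant of the clock and flowering regulator GIGANTEA (GI), aba1-6, a mutant of the zeaxanthin epoxidase ABA1 that starts ABA synthesis, and wild type of the accession Columbia (Col-0). Drought plants were kept at a relative soil water content of 30% from soon after germination, and normally watered plants at 80 to 90%. All plants were 3 weeks old and had grown in short days of 8 h light, with the light extended on the day of harvest. Harvests were at ZT1, ZT8, ZT12 and ZT16 (zeitgeber time, hours after lights on), so that ZT12 and ZT16 fell in the added light. Each of the 24 combinations had 2 libraries, each from about 50 seedlings of 3 pots, so 8 libraries stood behind each combination of genotype and watering. The 2 libraries of a group are called biological replicates in the labels, and each mutant is represented by 1 line.

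Total counts ranged from 1920012 to 26925706 per library, with a median of 8778260, and the 107 genes held 0.46% of all counts. Among nonzero whole-number counts up to 10, between 66.8% and 80.2% per library were even numbers. Low counts may thus not stand for as many independent reads. The cause was not tested. All 107 passed the filter on low counts. GI was transcribed in gi-2 (median 76 CPM under normal watering, against 66.6 CPM in wild type) and ABA1 in aba1-6 (median 102 CPM, against 123 CPM), so the level of neither transcript checks the genotype labels. The title of gi-2 under drought at ZT16, replicate 2, names gi-2 while its genotype tag names wild type, and it was grouped by its title. Without it, 13 members were called for drought in gi-2, 41 for gi-2 over wild type under drought, and 8 for the difference in drought effect, against 16, 46 and 9 with it. The shares of all genes called without it are not given here. The 5 leaf markers summed to between 22500 and 43300 CPM per library. The root markers, led by PYK10, summed to between 366 and 1320 CPM, the floral organ markers to at most 5.72 CPM and the seed markers to at most 0.647 CPM. In these whole aerial parts, fewer cells of a type and less RNA per cell cannot be told apart.

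Per kilobase of exon, the most abundant members in normally watered wild type were enzymes of glucosinolate synthesis and of the cuticle. CYP83A1 and CYP83B1, which oxidise the aldoxime intermediates of aliphatic and indole glucosinolates, stood at 191 and 181 CPM per kb. CYP86A2, a fatty acid omega-hydroxylase of cutin synthesis, followed at 144 CPM per kb. CYP79F1, which makes the aldoxime of chain-elongated methionine, stood at 101 CPM per kb, and CYP97A3, a carotenoid ring hydroxylase, at 90.3 CPM per kb. Summed per kilobase, the 2 members of CYP83 held 16.6% of the signal of the 107 genes, nearly the 17.2% of the 27 members of CYP71. In CPM without length, the mean level over all libraries ran from 1.11 to 329.1, with a median of 15.26, and 13 members exceeded 100 CPM while 45 lay below 10 CPM.

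The 107 genes fell into 29 families, 12 of them with 1 member. CYP71 was the largest, with 27 of its 48 named genes, followed by CYP81 with 10 of 15, CYP86 with 8 of 10, CYP705 with 7 of 24 and CYP72 with 6 of 9. In the TAIR10.1 annotation, 55 members lay within 20 kb of another member of the set, in 15 arrays. The largest array, on chromosome 4 from 17555899 to 17598958, held 7 genes of the CYP81 group, with CYP91A2 (also known as CYP81F1) among them. Neighbours in sequence can share reads: 34 members had at least one stretch of 50 exon bases in common with another named P450. CYP706A1 shared 46.6% of such stretches with CYP706A2, CYP71B19 shared 21.5% with CYP71B20, and CYP89A5 shared 12% with CYP89A6, so their separate values are uncertain. The span of 25 members overlapped another annotated gene, among them CYP722A1, CYP72C1, CYP77A4, CYP71A13, CYP71A19, CYP81H1 and CYP86A2. Whether counting used strand is not given in the sources used here, and reads of the overlapping gene cannot be told apart for these.

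Of the 107 genes, 31 (29%) passed the test for drought in wild type, where 23% of all 19037 tested genes did. A gene counts as called where the adjusted p of edgeR's quasi-likelihood test, Benjamini-Hochberg over all tested genes, lay under 0.05 for the log2 fold change averaged over the 4 times. The same test called 16 members for drought in gi-2 (15%, against 5.17% of all genes) and 16 for drought in aba1-6 (15%, against 9.32%). The counts for wild type and gi-2 depend on the libraries in the fit. With only the libraries compared, 33 members were called in gi-2 (30.8%, against 10.7% of all genes) and 18 in wild type (16.8%, against 13.3%). Between genotypes, 27 members differed for gi-2 over wild type under normal watering (25.2%, against 12.7%) and 46 under drought (43%, against 28.7%). For aba1-6 over wild type, 34 members differed under normal watering (31.8%, against 17%) and 41 under drought (38.3%, against 22.6%). Counted over these 7 contrasts, 83 members were called at least once (77.6%, against 52.7% of all genes) and 24 in none. The contrasts share libraries with each other, so their counts are not independent.

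**Figure D1:**
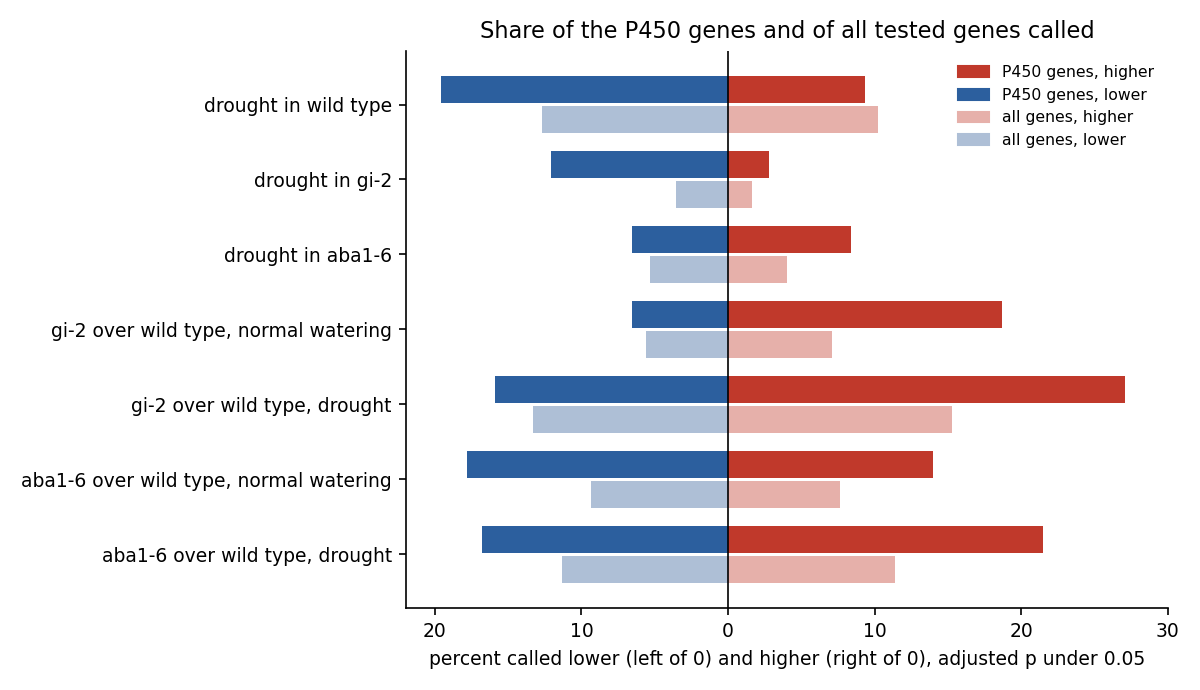
Percent of the 107 P450 genes (dark bars) and of all 19037 tested genes (pale bars) called lower (left of 0) and higher (right of 0) in 7 contrasts, each averaged over 4 times. The dark bar exceeds the pale one in each contrast and direction except for genes higher with drought in wild type (9.35% of the P450 genes, against 10.2% of all genes).

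By direction, 21 of the 31 calls for drought in wild type were lower (19.6% of members, against 12.7% of all genes) and 10 higher. In gi-2 the split was 13 lower (12.1%, against 3.53%) and 3 higher (2.8%, against 1.64%), and in aba1-6 it was 7 lower (6.54%, against 5.31%) and 9 higher (8.41%, against 4.01%). The gi-2 plants had 20 members higher than wild type under normal watering (18.7%, against 7.1%) and 7 lower (6.54%, against 5.61%), and 29 higher (27.1%, against 15.3%) and 17 lower (15.9%, against 13.3%) under drought. The aba1-6 plants had 15 members higher (14%, against 7.64%) and 19 lower (17.8%, against 9.33%) under normal watering, and 23 higher (21.5%, against 11.4%) and 18 lower (16.8%, against 11.3%) under drought. Some of these splits move with the scaling. With library totals in place of TMM factors, drought in wild type gave 14 higher and 19 lower, aba1-6 over wild type under normal watering 19 higher and 15 lower, and the difference in drought effect between gi-2 and wild type 4 higher and 9 lower. The median log2 fold change of the 107 genes lay between -0.07 and 0.08 in the 7 contrasts, against -0.01 to 0.01 for all genes.

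The steepest called changes under drought in wild type were in 4 genes of low level, 3 of them of defence and terpene metabolism. CYP82G1 makes the homoterpenes DMNT and TMTT, volatiles released after insect feeding. Its lowest, median and highest levels in wild type were 0, 0.0435 and 0.77 CPM under drought, against 0.934, 4.25 and 6.18 CPM under normal watering. The droughted libraries all lay below the watered ones, and 4 of the 8 were at 0. The log2 fold change was -4.73 ± 0.71 (adjusted p = 9.91e-06), where ± gives the standard error here and for the fold changes that follow. In gi-2 the levels were 0, 0 and 0.332 CPM under drought, against 0, 3 and 9.68 CPM under normal watering, and in aba1-6 they were 0, 0 and 0.139 CPM, against 0.377, 1.47 and 6.51 CPM. Both mutants thus had droughted libraries at 0 for the most part, 5 of 8 in gi-2 and 7 of 8 in aba1-6. CYP82G1 was called lower in both (adjusted p = 4.45e-05 in gi-2 and 2.14e-05 in aba1-6), with no estimate of the fold because some groups held no count. The gi-2 call was lost without its normally watered ZT16 replicate 1, which leaves a watered library at 0 as the only one of its group (adjusted p = 1).

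CYP71A12 and its neighbour CYP71A13 turn indole-3-acetaldoxime into indole-3-acetonitrile on the way to camalexin, the main phytoalexin of Arabidopsis. CYP71A12 had 0, 0.245 and 0.63 CPM in droughted wild type, against 1.24, 4.83 and 6.89 CPM in watered wild type, and the groups did not overlap. Its log2 fold change was -3.2 ± 0.53 in gi-2 (adjusted p = 1.68e-04), -1.55 ± 0.35 in aba1-6 (adjusted p = 0.00271) and -3.76 ± 0.54 in wild type (adjusted p = 1.7e-06). In aba1-6 it stood at 0.648, 1.07 and 2.9 CPM under drought, above every droughted wild-type library, and the fold of aba1-6 over wild type under drought was 2.47 ± 0.56 (adjusted p = 0.0012). The difference of the drought effects themselves, 2.21 ± 0.68, did not pass the test (adjusted p = 0.0722). CYP71A13 fell in gi-2 (-0.97 ± 0.18, adjusted p = 7.18e-04) and in aba1-6 (-0.58 ± 0.15, adjusted p = 0.0118), the second call being lost without aba1-6 normal ZT8 replicate 2 (-0.41, adjusted p = 0.114). In wild type its fold of -0.47 did not pass. PAD3, the P450 of the last camalexin step, was lower with drought in wild type and gi-2 (adjusted p = 0.00147 and 0.00457, with no fold estimated because some groups held no count). Its call in aba1-6 (-1.61 ± 0.5, adjusted p = 0.035) was lost in 9 of 16 fits that each left out 1 library, and the fold changed sign in another, without aba1-6 normal ZT12 replicate 2 (0.33, adjusted p = 0.897).

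CYP76C2, an oxidase of the monoterpene alcohol linalool, had 0, 0.917 and 2.11 CPM in droughted wild type, against 0.793, 4.01 and 33.2 CPM in watered wild type. One watered ZT1 library held the 33.2 CPM and the groups overlapped, but at each of the 4 times both droughted libraries lay below both watered ones. The log2 fold change was -2.48 ± 0.61 (adjusted p = 0.00381). It was -2.53 ± 0.6 in gi-2 (adjusted p = 0.0103, or 0.0603 without gi-2 normal ZT12 replicate 1) and did not pass in aba1-6. Under normal watering CYP76C2 was also lower in aba1-6 than in wild type (-1.75 ± 0.52, adjusted p = 0.0193), a call lost in 3 of 16 fits that each left out 1 library (adjusted p up to 0.102). CYP81D1, a member of the CYP81 family without an assigned role here, had 0, 0.268 and 1.06 CPM in droughted wild type, against 1.32, 4.5 and 6.25 CPM in watered wild type. The groups did not overlap, and the fold was -3.87 ± 0.77 (adjusted p = 4.76e-04). It was also called lower in gi-2 (adjusted p = 8.82e-04, or 0.105 without gi-2 normal ZT1 replicate 1) and did not pass in aba1-6 (-0.94).

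**Figure D2:**
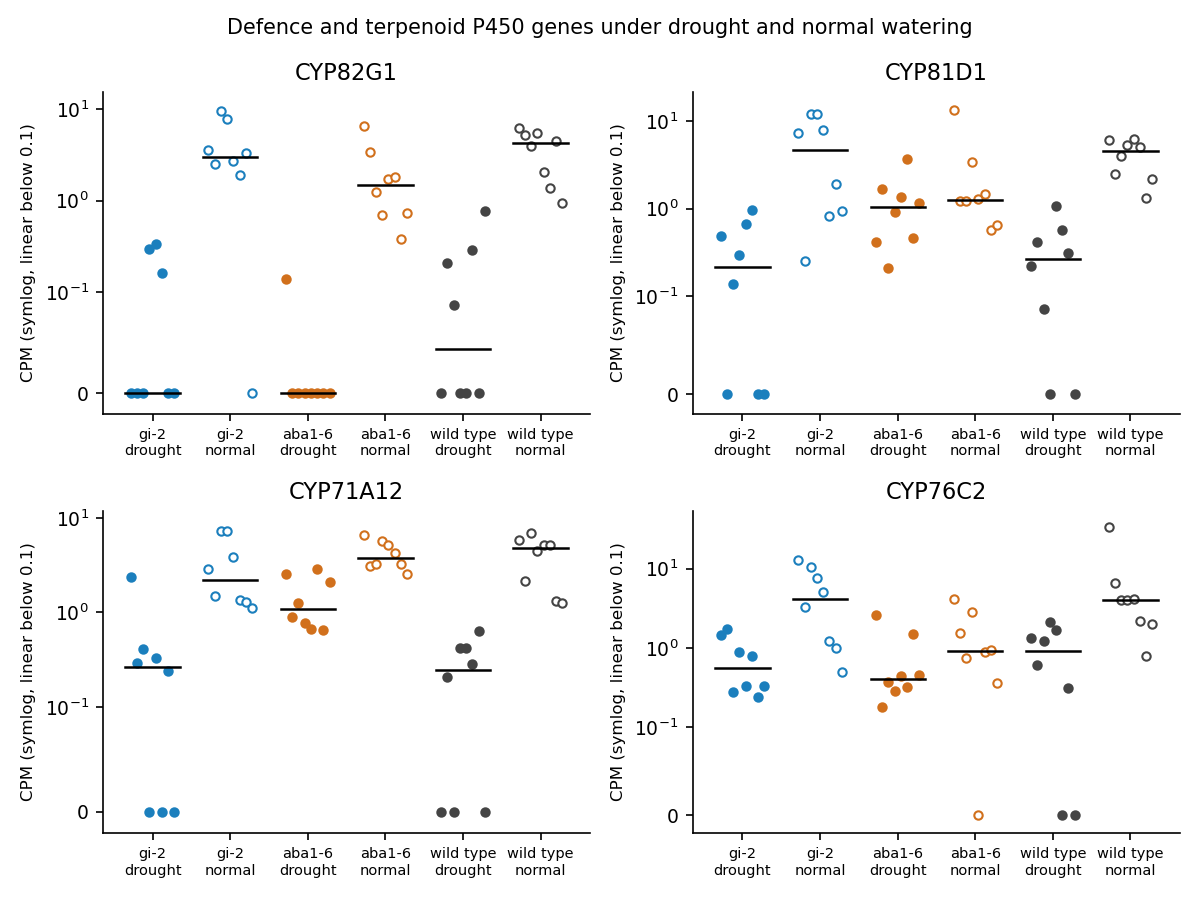
CPM of CYP82G1, CYP81D1, CYP71A12 and CYP76C2 in each of 48 libraries (symlog axis, linear below 0.1). Filled points are drought and open points normal watering, in gi-2, aba1-6 and wild type, and lines are medians of 8. In wild type the droughted points of CYP82G1, CYP81D1 and CYP71A12 all lie below the watered ones.

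Among the root markers, the iron transporter IRT1 and the nitrate transporter NRT2:1 fell with drought beside these 4 genes. NRT2:1 had 0, 0.831 and 1.88 CPM in droughted wild type, against 7.64, 12.6 and 17.4 CPM in watered wild type, and its folds were -3.06 ± 0.39 in gi-2, -2.72 ± 0.34 in aba1-6 and -3.94 ± 0.45 in wild type. The root hair markers SHV2 and EXPA7 were at 0 in all droughted gi-2 libraries, and EXPA7 in all droughted wild-type ones. The summed level of the 6 root markers, carried by PYK10, had a median of 685 CPM in droughted gi-2, against 958 CPM in watered gi-2, and of 736 CPM in droughted wild type, against 687 CPM in watered wild type. In aba1-6 it was 734 CPM under drought, against 730 CPM under normal watering. PYK10 itself was called lower with drought in gi-2 (-0.39 ± 0.09, adjusted p = 0.00405). The plants were cut above the hypocotyl, and the part of root tissue in these results was not tested.

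The promoter of CYP76C2 is shown because it holds 2 W-boxes, the WRKY-binding letters TTGACC on either strand, at 236 and 156 bases before the annotated start. It is the 250 bases before that start in the RefSeq genome TAIR10.1, chr2:18781974-18782223, minus strand, 5′ to 3′, with the W-boxes in capitals (both read GGTCAA here, the reverse complement):
CYP76C2: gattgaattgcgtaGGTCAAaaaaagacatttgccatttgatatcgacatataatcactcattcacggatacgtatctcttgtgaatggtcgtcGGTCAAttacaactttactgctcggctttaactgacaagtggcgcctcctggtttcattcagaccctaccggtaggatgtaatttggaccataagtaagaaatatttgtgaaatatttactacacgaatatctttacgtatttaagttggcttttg
A W-box occurred in such a window in 5 of the 21 members lower with drought in wild type (23.8%), in 13 of the 107 members (12.1%) and in 12.2% of 27443 protein-coding genes. The windows of CYP82G1, CYP81D1 and CYP71A12 had none.

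Several glucosinolate P450 genes, though not all, were lower in gi-2 than in wild type under drought. CYP79B2 and CYP79B3 turn tryptophan into indole-3-acetaldoxime, the shared start of indole glucosinolates and camalexin. CYP79B3 had 65.3, 82.6 and 140 CPM in droughted gi-2, against 69.6, 156 and 211 CPM in droughted wild type, with overlapping groups and a log2 fold change of -0.67 ± 0.1 (adjusted p = 2.09e-06). CYP83B1 was lower with a fold of -0.33 ± 0.1 (adjusted p = 0.00938) and CYP79F1 with one of -0.52 ± 0.12 (adjusted p = 0.00135). CYP79F1 had 68.3, 312 and 368 CPM in droughted gi-2, against 220, 326 and 440 CPM in droughted wild type. The lowest gi-2 values were the 2 libraries of ZT1, at 68.3 and 81.4 CPM, against 303 and 259 CPM in wild type at that time. The calls of CYP79B2 (-0.48) and CYP83A1 (-0.26) were lost in 6 and 5 of 16 fits that left out 1 library. CYP91A2, one of the enzymes that modify the indole ring of indole glucosinolates, was lower with a fold of -0.44 ± 0.14 (adjusted p = 0.0123), a call lost without gi-2 drought ZT16 replicate 2 or wild-type drought ZT8 replicate 2 (adjusted p up to 0.0544). CYP79F2 (0.29), CYP81F2 (0.59), CYP81F3 (-0.36) and CYP81F4 (-0.25) did not pass. Of the 11 tested P450 genes of tryptophan-derived defence, 10 of them members, 6 were lower and 0 higher in this comparison, with a median of -0.33. Over all genes 13.3% were lower and 15.3% higher. The lower levels were in part present under normal watering too, where 5.61% of all genes were lower. Of the 2 CYP83 members 1 was lower there (median -0.28), against 2 under drought (median -0.3). Of the 4 CYP79 members 0 were lower there (median -0.23), against 3 under drought (median -0.5). No member of either family passed the test for a difference in drought effect.

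The other genes of these pathways were counted in the same comparison. Like all pathway lists here, theirs were chosen with earlier results of these data known. The counts therefore describe these data and are no separate support. Over all genes 13.3% were lower and 15.3% higher in droughted gi-2. Of 12 tested partners of aliphatic glucosinolate synthesis, 8 were lower and 0 higher in droughted gi-2, with a median log2 fold change of -0.42 against -0.01 for all genes. Examples are GSTU20 (-0.67), BCAT4 (-0.6) and MAM1 (-0.51). Under normal watering 2 of the 12 were lower (all genes 5.61%) and 1 higher (all genes 7.1%), with MYB29, a regulator of the pathway, at 0.45. Of 15 tested partners of tryptophan-derived defence, 6 were lower and 2 higher in droughted gi-2.

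In aba1-6, CYP81F2 and CYP79F2 were higher than in wild type, and CYP79F1 was lower under drought. CYP81F2, which hydroxylates the indole ring for the glucosinolates used in antimicrobial defence, had 3.25, 3.79 and 5.98 CPM in watered aba1-6, against 0.535, 1.14 and 2.64 CPM in watered wild type. The groups did not overlap, and the fold was 1.73 ± 0.3 (adjusted p = 3.96e-05). Under drought the levels were 0.89, 3.08 and 5.55 CPM in aba1-6, against 0, 0.744 and 1.39 CPM in wild type, with a fold of 2.01 ± 0.36 (adjusted p = 2.78e-05). CYP79F2, which uses the longest-chain methionine derivatives, was higher in aba1-6 by 0.69 ± 0.12 under normal watering and 0.75 ± 0.12 under drought (adjusted p = 3.23e-05 and 4.89e-06). Its neighbour CYP79F1 was lower in aba1-6 under drought, with a fold of -0.52 ± 0.12 (adjusted p = 0.00151). The call of CYP79F1 under normal watering (-0.36) was lost in 8 of 16 fits without 1 library.

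The terpene oxidase CYP76C1, which acts on linalool in flowers, was higher in gi-2 and lower in aba1-6. It had 66.8, 80 and 129 CPM in watered gi-2, against 43.4, 56.1 and 118 CPM in watered wild type, and the groups overlapped over the day as a whole. At each of the 4 times both gi-2 libraries lay above both wild-type ones, and the fold was 0.43 ± 0.06 (adjusted p = 1.14e-06). Under drought it was 0.53 ± 0.06 (adjusted p = 5.82e-09). The aba1-6 folds were -0.25 ± 0.06 under normal watering and -0.24 ± 0.06 under drought (adjusted p = 0.00401 and 0.00268). CYP708A2, a hydroxylase of the root triterpene thalianol, stood near 3 CPM in each group and was called in none of the 7 contrasts.

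Of the P450 genes of cutin, suberin and wax, 2 were higher and 0 lower in watered gi-2 than in watered wild type, and 0 were higher and 2 lower in watered aba1-6, out of 9 tested. Over all genes 7.1% were higher and 5.61% lower in watered gi-2, and 7.64% higher and 9.33% lower in watered aba1-6. Counts of 2 among 9 genes are small. CYP86A1 and CYP86B1 are fatty acid omega-hydroxylases of suberin, the barrier polymer best known from root endodermis and periderm. CYP86A1 had 6.12, 9.53 and 17.9 CPM in watered gi-2, against 1.04, 2.96 and 4.76 CPM in watered wild type. The groups did not overlap, and the fold was 1.74 ± 0.22 (adjusted p = 1.85e-07). Under drought it was 0.82 ± 0.22 (adjusted p = 0.00365). CYP86B1 had 1.75, 4.02 and 7.6 CPM in watered gi-2, against 1.03, 1.82 and 2.48 CPM in watered wild type, and its fold was 1.23 ± 0.25 (adjusted p = 3.82e-04). Its call under drought (0.69) was lost in 9 of 16 fits without 1 library. The summed root markers had a median of 958 CPM (643 to 1210) in watered gi-2, against 687 CPM (641 to 762) in watered wild type. This sum is carried by PYK10, which passed the test (0.37), while IRT1 (0.86), NRT2:1 (-0.09) and the CASP1 gene AT2G36100 (0.72) did not. The part of root tissue in the levels of CYP86A1 and CYP86B1 was not tested.

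CYP86A2 and CYP86A8 make omega-hydroxy fatty acids for cutin. CYP86A2 had 112, 187 and 334 CPM in watered aba1-6, against 230, 290 and 479 CPM in watered wild type, and the fold was -0.68 ± 0.14 (adjusted p = 0.001). Under drought it was -0.53 ± 0.14 (adjusted p = 0.00603), while gi-2 did not differ past the threshold from wild type under either watering (0.12 and 0.35). CYP86A8 fell with drought in wild type, where it had 30.9, 40.4 and 78.3 CPM, against 50.6, 60.3 and 94.1 CPM under normal watering. The groups overlapped, the ZT1 libraries being highest in both, and the fold was -0.52 ± 0.08 (adjusted p = 1.32e-06). In gi-2 it had 62.3, 69.9 and 91.6 CPM under drought, against 68.2, 72.9 and 79.3 CPM under normal watering. The fold there was -0.02, and the drought effect of gi-2 minus that of wild type was 0.5 ± 0.11 (adjusted p = 0.00148). Droughted gi-2 was above droughted wild type at each of the 4 times, by 0.69 ± 0.08 (adjusted p = 1.27e-09). CYP77A4, an epoxidase of unsaturated fatty acids, was lower in droughted aba1-6 and gi-2 than in droughted wild type, with folds of -0.69 ± 0.14 and -0.61 ± 0.15 (adjusted p = 2.58e-04 and 0.00158).

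**Figure D3:**
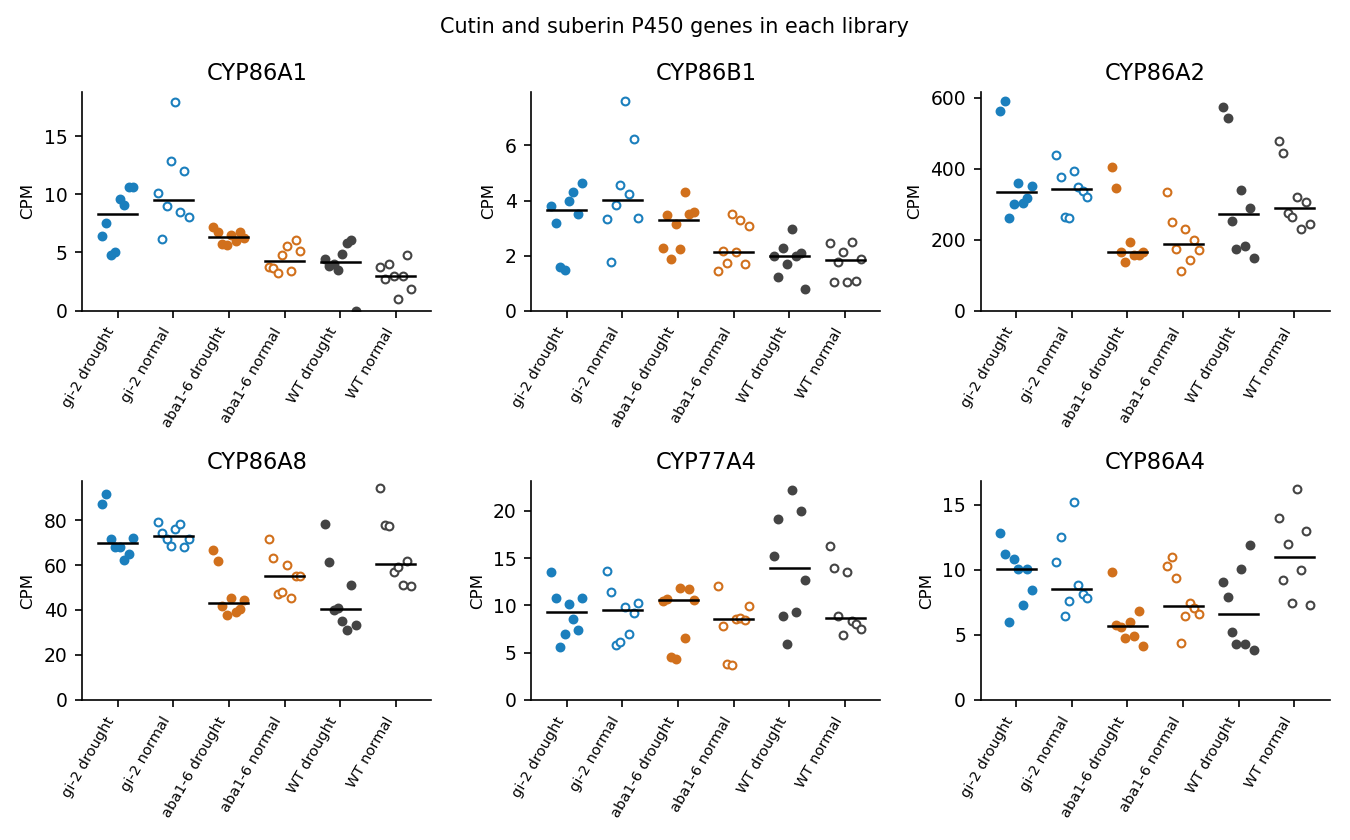
CPM of 6 P450 genes of cutin and suberin in each library (linear axes from 0), with filled points for drought, open points for normal watering and lines for medians of 8. CYP86A1 is higher in watered gi-2 (6.12 to 17.9 CPM) than in watered wild type (1.04 to 4.76 CPM), and CYP86A2 is lower in aba1-6.

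Of 22 tested partner genes of cutin and wax synthesis, 16 were higher and 1 lower in droughted gi-2 than in droughted wild type, with a median of 0.37. Over all genes 15.3% were higher and 13.3% lower. GPAT8, an acyltransferase of cutin, stood at 0.86, the elongase gene KCS5 at 0.84 and the wax gene CER3 at 0.8, while the wax ester synthase WSD1 was lower (-1.67). With drought, 1 of the 22 fell and 0 rose in gi-2, 5 fell and 2 rose in aba1-6, and 10 fell and 3 rose in wild type. The medians were 0.03, -0.14 and -0.08, against 0 to 0.01 for all genes. In the same order, 3.53%, 5.31% and 12.7% of all genes fell and 1.64%, 4.01% and 10.2% rose. In aba1-6 against wild type, 8 of the 22 were lower and 0 higher under normal watering (all genes 9.33% and 7.64%), with CER1, of alkane synthesis, at -1.18. The comparisons of droughted gi-2 and of drought in wild type share the droughted wild-type libraries.

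In phenylpropanoid synthesis the member CYP98A3, the 3'-hydroxylase of lignin precursors, was lower in droughted aba1-6. It had 31.3, 44 and 117 CPM there, against 42.7, 55.4 and 187 CPM in droughted wild type, with both aba1-6 libraries below both wild-type ones at each of the 4 times and a fold of -0.39 ± 0.07 (adjusted p = 5.85e-05). It did not pass for drought in any genotype. Of the partners under other names, C4H, the second enzyme of the pathway, rose with drought in wild type (0.32) and was lower in droughted gi-2 and aba1-6 than in wild type (-0.72 and -0.61). TT7, the flavonoid 3'-hydroxylase, followed with 1.75 for drought in wild type, -3.04 for droughted gi-2 and -1.19 for droughted aba1-6. Of 14 further tested genes of the pathway, 8 rose and 1 fell with drought in wild type (median 0.3), and 10 were lower and 0 higher in droughted aba1-6 than in droughted wild type (median -0.28). Over all genes 10.2% rose and 12.7% fell with drought in wild type, and 11.3% were lower and 11.4% higher in droughted aba1-6.

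Among hormone genes, brassinosteroid and strigolactone members changed by genotype, and CYP72C1 also with drought. CYP90D1, a C-23 hydroxylase of brassinosteroid synthesis, had 7.21, 10.9 and 15 CPM in watered aba1-6, against 3.9, 6.7 and 8.08 CPM in watered wild type. Both aba1-6 libraries lay above both wild-type ones at each time, and the fold was 0.76 ± 0.14 (adjusted p = 1.04e-04), or 0.5 ± 0.14 under drought (adjusted p = 0.0063). CYP72C1, which lowers brassinosteroid levels, had 0.753, 1.38 and 2.53 CPM in droughted aba1-6, against 2.22, 3.22 and 6.21 CPM in watered aba1-6, a fold of -1.14 ± 0.26 (adjusted p = 0.00224). In wild type the fold was -0.91 ± 0.29 (adjusted p = 0.0163), lost in 3 of 16 fits without 1 library. CYP72C1 was higher in droughted gi-2 than in droughted wild type, by 0.9 ± 0.28 (adjusted p = 0.0136). BAS1, a brassinosteroid-inactivating P450 under its own name, was higher in aba1-6 by 1.28 under normal watering and 1.42 under drought. With drought BAS1 fell in wild type (-0.71) and in aba1-6 (-0.57). Other brassinosteroid P450 genes under their own names fell in wild type too, BR6OX1 by -1.52 and BR6OX2 by -0.35 (adjusted p = 5.46e-04 and 0.00466). CPD (-0.19), DWF4 (0.12), ROT3 (0.2) and the member CYP90D1 (0.18) did not pass there. In aba1-6 BR6OX2 fell (-0.27) and ROT3 rose (0.45) with drought. Of 12 tested partners of brassinosteroid synthesis and signalling, 8 fell and 0 rose with drought in wild type (median -0.24), 5 fell and 0 rose in aba1-6, and 1 fell in gi-2, with SMT1 and BRI1 among those called in wild type (-0.81 and -0.28). Over all genes 12.7% fell with drought in wild type, 5.31% in aba1-6 and 3.53% in gi-2.

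CYP711A1 (MAX1), which oxidises carlactone in strigolactone synthesis, had 9.97, 24.8 and 37.3 CPM in watered gi-2, against 14.2, 33 and 43.2 CPM in watered wild type. The ranges overlapped, with the ZT8 libraries lowest in each genotype, and the fold was -0.41 ± 0.08 (adjusted p = 3.49e-04), or -0.46 ± 0.08 under drought (adjusted p = 2.36e-05). The gibberellin gene CYP88A3, an ent-kaurenoic acid oxidase, was called in none of the 7 contrasts, and its medians lay between 12.8 and 14.7 CPM. The jasmonate hydroxylase CYP94B3 had medians of 0 CPM in droughted gi-2, 0.0525 CPM in droughted aba1-6 and 0 CPM in droughted wild type, against 1.35, 0.403 and 2.44 CPM in the same genotypes under normal watering. It had 6, 4 and 5 droughted libraries at 0 and passed no test. AOS and HPL1, P450 genes of the oxylipin branches that lead to jasmonate and to leaf volatiles, were lower in aba1-6 than in wild type under normal watering (-1.02 and -0.71) and under drought (-0.85 and -0.82). HPL1 was lower in gi-2 as well (-1.27 and -1.23).

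The carotenoid hydroxylases and sterol genes moved little. CYP97A3 was higher in gi-2 than in wild type under drought by 0.38 ± 0.08 (adjusted p = 1.58e-04) and CYP97B3 by 0.21 ± 0.06 (adjusted p = 0.00843), and neither was called in the other 6 contrasts. CYP51G1, the sterol 14-demethylase, had 58.5, 84.3 and 107 CPM in droughted wild type, against 82.1, 106 and 115 CPM in watered wild type, and its fold was -0.3 ± 0.07 (adjusted p = 0.00176). With only the wild-type libraries in the fit that call was lost (-0.31, adjusted p = 0.0578). CYP710A2, a sterol C-22 desaturase, was lower in aba1-6, with folds of -0.44 ± 0.09 under normal watering and -0.46 ± 0.09 under drought (adjusted p = 7.53e-04 and 1.99e-04).

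The CYP78A genes, whose best known members CYP78A5 (KLUH), CYP78A6 and CYP78A9 promote organ and seed size, had 4 members in the set. CYP78A8, a relative of these, had 6.47, 9.02 and 14.1 CPM in droughted gi-2, against 2.31, 5.04 and 8.87 CPM in droughted wild type. Both gi-2 libraries lay above both wild-type ones at each time, and the fold was 1.04 ± 0.16 (adjusted p = 1.82e-06). It was also higher in droughted aba1-6, by 0.91 ± 0.16 (adjusted p = 1.62e-05), and fell with drought in wild type (-0.74 ± 0.16, adjusted p = 6.36e-04). CYP78A6 and CYP78A9 ran opposite ways in the mutants. Under drought CYP78A9 was lower in gi-2 (-0.76 ± 0.15, adjusted p = 7.85e-05) and higher in aba1-6 (0.5 ± 0.13, adjusted p = 0.00356) than in wild type, and CYP78A6 stood at -0.56 ± 0.11 and 0.49 ± 0.1 (adjusted p = 1.25e-04 and 2.2e-04). CYP78A5 was higher in gi-2 under both regimes (0.57 ± 0.14 and 0.43 ± 0.14, adjusted p = 0.00293 and 0.013). The floral organ markers were higher in aba1-6: their sum had medians of 3.69 CPM under drought and 3.8 CPM under normal watering, against 1.24 and 1.2 CPM in wild type. PI and SEP3 passed the test, AP1 and AP3 were at 0 in the watered aba1-6 libraries, and the part of floral tissue in the CYP78A levels was not tested.

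Most of the remaining called members belong to families without a settled role for each gene. CYP71 gave 13 calls of 27 for drought in wild type (4 higher, 9 lower), 6 in gi-2 (all lower) and 5 in aba1-6 (2 higher, 3 lower), where 23%, 5.17% and 9.32% of all genes were called. In gi-2 against wild type 10 of the 27 were higher and 0 lower under normal watering (all genes 7.1% and 5.61%). Under drought 11 were higher and 2 lower (all genes 15.3% and 13.3%). In aba1-6 against wild type the counts were 6 higher and 3 lower under normal watering (all genes 7.64% and 9.33%). Under drought they were 10 higher and 4 lower (all genes 11.4% and 11.3%).

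CYP71B23 and CYP71B36 were among those that fell with drought in wild type and stood higher in droughted aba1-6. CYP71B23 had 5.09, 9.48 and 16.2 CPM in droughted aba1-6, against 2.11, 3.39 and 5.49 CPM in droughted wild type. At each time both aba1-6 libraries lay above both wild-type ones, and the fold was 1.39 ± 0.22 (adjusted p = 6.57e-06). Its drought fold was -0.26 in aba1-6, which did not pass, -1.14 ± 0.22 in gi-2 (adjusted p = 0.00119) and -1.17 ± 0.23 in wild type (adjusted p = 1.73e-04, or 0.0728 without wild-type normal ZT12 replicate 2). The drought effect of aba1-6 minus that of wild type, 0.91 ± 0.29, did not pass (adjusted p = 0.0886). CYP71B36 gave 0.99 ± 0.21 for droughted aba1-6 over wild type (adjusted p = 3.44e-04) and -1 ± 0.22 for drought in wild type (adjusted p = 4.93e-04). CYP71A27 was higher in aba1-6 under both regimes (1.06 ± 0.24 and 1.58 ± 0.26, adjusted p = 0.00105 and 6.1e-06), and CYP71A25 was lower (-0.97 ± 0.24 and -1.24 ± 0.23, adjusted p = 0.00339 and 3.97e-05).

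The 3 CYP89A members were lower in aba1-6 under both regimes. CYP89A2 had 32.9, 39.7 and 58.6 CPM in watered aba1-6, against 51.6, 67 and 103 CPM in watered wild type, a fold of -0.7 ± 0.07 (adjusted p = 8.8e-11) with both aba1-6 libraries below both wild-type ones at each time. CYP89A5, its neighbour on chromosome 1, gave -0.65 ± 0.07 (adjusted p = 1.79e-09). CYP89A9, an enzyme of chlorophyll breakdown in senescing leaves, gave -0.94 ± 0.22 (adjusted p = 0.00309), or -0.7 and an adjusted p of 0.197 without wild-type normal ZT12 replicate 2.

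CYP705A19 and CYP722A1 rose with drought in wild type. CYP705A19 had 48.6, 63.8 and 93.7 CPM in droughted wild type, against 32.4, 36.3 and 50 CPM in watered wild type. The ranges overlapped, but both droughted libraries lay above both watered ones at each time, and the fold was 0.73 ± 0.09 (adjusted p = 7.91e-08). It rose by 0.66 ± 0.09 in aba1-6 as well (adjusted p = 2.86e-06). Its level was lower there, with 13.8, 23.6 and 33.4 CPM in watered aba1-6 and a fold of -0.78 ± 0.1 against wild type (adjusted p = 9.22e-08). In watered gi-2 it stood at 46.8, 63.7 and 79.8 CPM, higher than in watered wild type by 0.65 ± 0.09 (adjusted p = 1.36e-06), and drought gave 0.2 in gi-2, which did not pass. CYP722A1 had 2.06, 4.63 and 11.6 CPM in droughted wild type, against 0.535, 1.53 and 4.05 CPM in watered wild type, a fold of 1.75 ± 0.27 (adjusted p = 2.65e-06). In gi-2 the fold was 0.26 and in aba1-6 0.65, and neither passed. CYP71A19 rose by 0.97 ± 0.26 in wild type (adjusted p = 0.0054), a call lost without wild-type drought ZT16 replicate 1 (0.52, adjusted p = 0.308) or wild-type normal ZT12 replicate 2.

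The drought effect itself was tested for a difference between gi-2 and wild type, and 9 of the 107 members passed (8.41%, against 6.96% of all genes), 5 with a positive (4.67%, against 3.87%) and 4 with a negative difference (3.74%, against 3.09%). These shares are near those of all genes. The count was 14 with no filter on low counts (13.1%, against 7.91%). It was also 14 without wild-type drought ZT12 replicate 1, where the share of all genes is not given. It was higher still in a fit with a block for the replicate number, given in the closing section. The 5 were CYP706A1 (0.51 ± 0.13, adjusted p = 0.00917), CYP71B12 (0.51 ± 0.15, adjusted p = 0.0244), CYP86A8 (above), CYP706A6 (0.47 ± 0.08, adjusted p = 8.38e-05) and CYP71B7 (0.39 ± 0.1, adjusted p = 0.00966). All 5 fell with drought in wild type (CYP71B12 with a fold of -0.29 ± 0.11, adjusted p = 0.0458), and none was called lower in gi-2. CYP706A1 had 75.6, 101 and 119 CPM in droughted gi-2, against 99.2, 118 and 137 CPM in watered gi-2. In droughted wild type it had 35.5, 63.5 and 88.1 CPM, against 74.4, 99.1 and 138 CPM in watered wild type. CYP71B7 was similar, with folds of -0.18 in gi-2, which did not pass, and -0.57 ± 0.07 in wild type. CYP706A6 ran the other way in gi-2, with 0.25 ± 0.06 there and -0.22 ± 0.06 in wild type (adjusted p = 0.00352 and 0.00321), and the wild-type call was lost with only the wild-type libraries in the fit (adjusted p = 0.0547). The difference for CYP71B12 did not pass when either gi-2 drought ZT8 replicate 2 or wild-type drought ZT16 replicate 1 was left out (0.44 and 0.45, adjusted p = 0.0574 and 0.0523).

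The 4 with a negative difference were CYP722A1 (-1.48 ± 0.37, adjusted p = 0.00816), CYP71A19 (-1.18 ± 0.34, adjusted p = 0.0259), CYP705A19 (-0.53 ± 0.13, adjusted p = 0.00603) and CYP71B26 (-0.42 ± 0.12, adjusted p = 0.0276). All 4 rose with drought in wild type. Those of CYP71A19 and CYP71B26 were lost in 7 and 5 of 32 fits without 1 library. For aba1-6 against wild type 2 members passed (1.87%, against 2.74% of all genes), 1 higher (0.935%, against 1.83%) and 1 lower (0.935%, against 0.914%), or 3 higher and 1 lower by DESeq2. With no filter on low counts the number was 9 (8.41%, against 4.22%). With 1 library left out it ran from 1 to 5, where the shares of all genes are not given. The block for the replicate number raised it too. CYP706A6 gave 0.47 ± 0.08 (adjusted p = 2.61e-04), rising by 0.25 ± 0.06 in aba1-6, and CYP81H1 gave -0.37 ± 0.1 (adjusted p = 0.033), lost in 15 of 32 fits without 1 library.

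**Figure D4:**
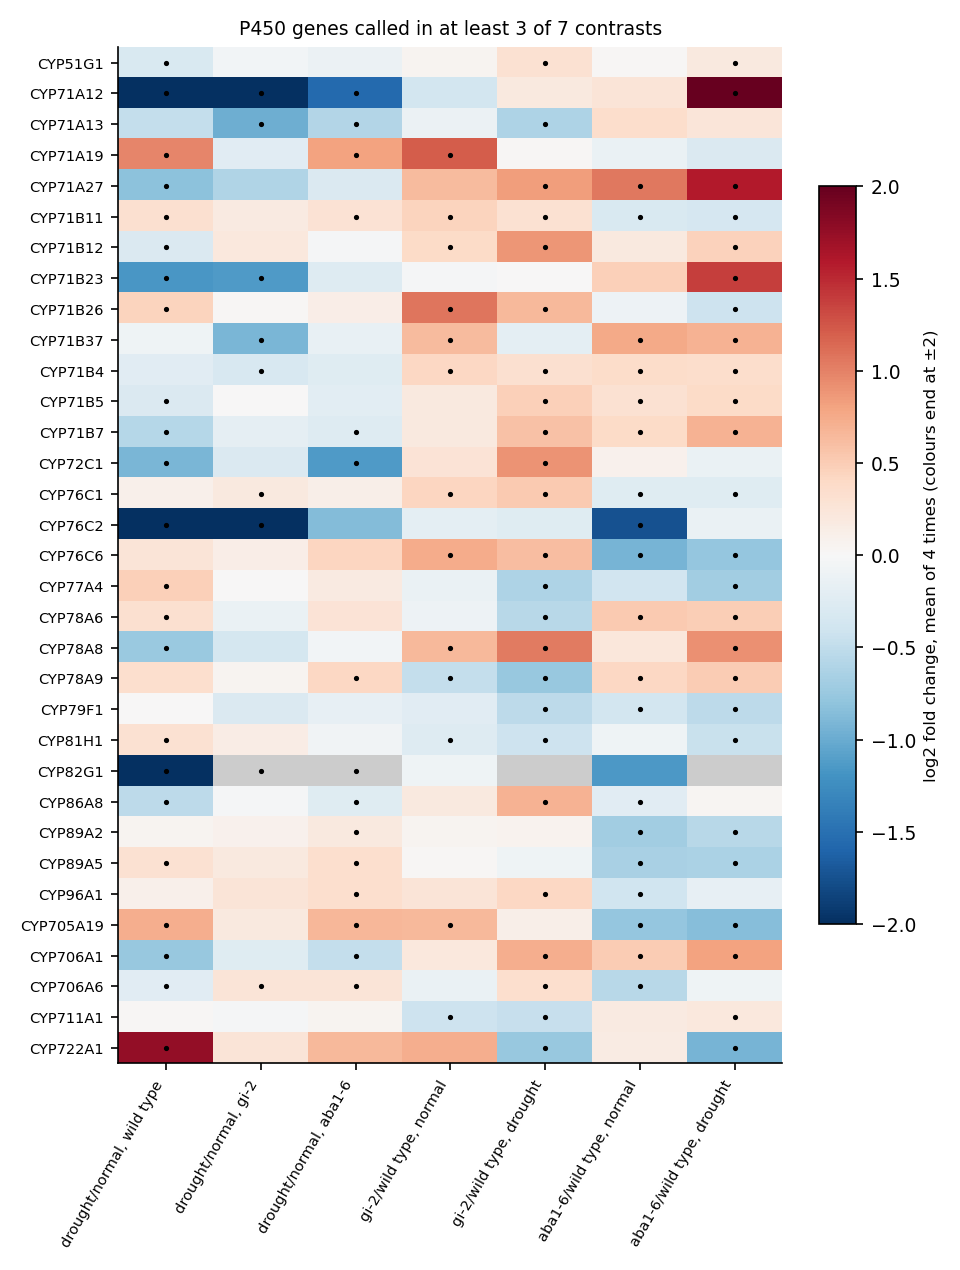
Log2 fold change, averaged over 4 times, of the 33 P450 genes called in at least 3 of 7 contrasts (rows, by family number). Columns are the 3 drought effects and the 4 comparisons of a mutant with wild type, red is higher and blue lower, a dot marks a call, and grey cells have no estimate because a group held no count. The row of CYP89A2 is blue in both aba1-6 columns, and that of CYP71B26 is red in both gi-2 columns.

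Time of day separated many of the P450 genes in watered wild type: 54 of the 107 differed between ZT1, ZT8, ZT12 and ZT16 (50.5%, against 38.2% of all genes). Of the 54, 29 were highest at ZT1 (53.7%, against 39% of all genes called), 5 at ZT8 (9.26%, against 26.4%), 8 at ZT12 (14.8%, against 12.8%) and 12 at ZT16 (22.2%, against 21.8%). The widest range was that of CYP71B26, with a ratio of the highest to the lowest group mean of 21 after adding 1 CPM, followed by CYP71B2 (13.4) and CYP76C2 (8.68). The call of CYP76C2 was lost without wild-type normal ZT1 replicate 1 (adjusted p = 0.268), the library at 33.2 CPM. Genes highest at ZT1 included CYP98A3 of lignin synthesis, the cutin gene CYP86A8 and the camalexin gene CYP71A13, while CYP711A1 and the glucosinolate genes CYP79B3 and CYP83B1 were highest at ZT16.

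The course over the day differed between gi-2 and wild type under normal watering in 7 members (6.54%, against 3.75% of all genes), and 6 of the 7 are CYP71B genes. With no filter on low counts 16 members passed (15%, against 5.05%). The count also rose with the block for the replicate number. CYP71B26 had 87.3 and 93.5 CPM in gi-2 at ZT1, against 96.9 and 98 CPM in wild type. At ZT8 it had 91.6 and 83.9 CPM in gi-2, against 52.3 and 54.4 CPM in wild type, at ZT12 26.7 and 27.6 CPM against 5.73 and 10 CPM, and at ZT16 15.2 and 16.6 CPM against 3.04 and 4.36 CPM. The 2 genotypes thus started the day at a like level, and the gi-2 libraries lay above the wild-type ones at the 3 later times (adjusted p = 1.96e-08). CYP71B2 had 96.9 and 88.4 CPM in gi-2 at ZT1, against 93.2 and 119 CPM in wild type, but 17.2 and 22.6 CPM in gi-2 at ZT8, against 5.78 and 8.2 CPM in wild type (adjusted p = 5.35e-06).

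CYP71B20 was highest at ZT8 in both, and its difference widened later: at ZT12 it had 104 and 117 CPM in gi-2, against 47.9 and 61.1 CPM in wild type, and at ZT1 42.3 and 39.8 CPM, against 31.4 and 31.8 CPM (adjusted p = 0.00593, or 0.0625 with library totals for scaling). CYP71B4 (adjusted p = 0.00232), which lies next to CYP71B26 on chromosome 3, had 31.3 and 25.9 CPM in gi-2 at ZT16, against 14.4 and 12.4 CPM in wild type. CYP71B12 (adjusted p = 6.92e-04) was lower in gi-2 at ZT1, with 11.6 and 12.7 CPM against 18.2 and 17.2 CPM in wild type, and higher at ZT8, with 20.3 and 20.9 CPM against 10.5 and 8.47 CPM. CYP81D5, the exception by family, was lower in gi-2 at all 4 times and least so at ZT1 (adjusted p = 0.0236). At ZT16 it had 9.6 and 10.9 CPM in gi-2, against 22.1 and 25.7 CPM in wild type. Its call and that of CYP71B7 (adjusted p = 0.0276) were lost in 4 and 7 of 16 fits without 1 library.

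**Figure D5:**
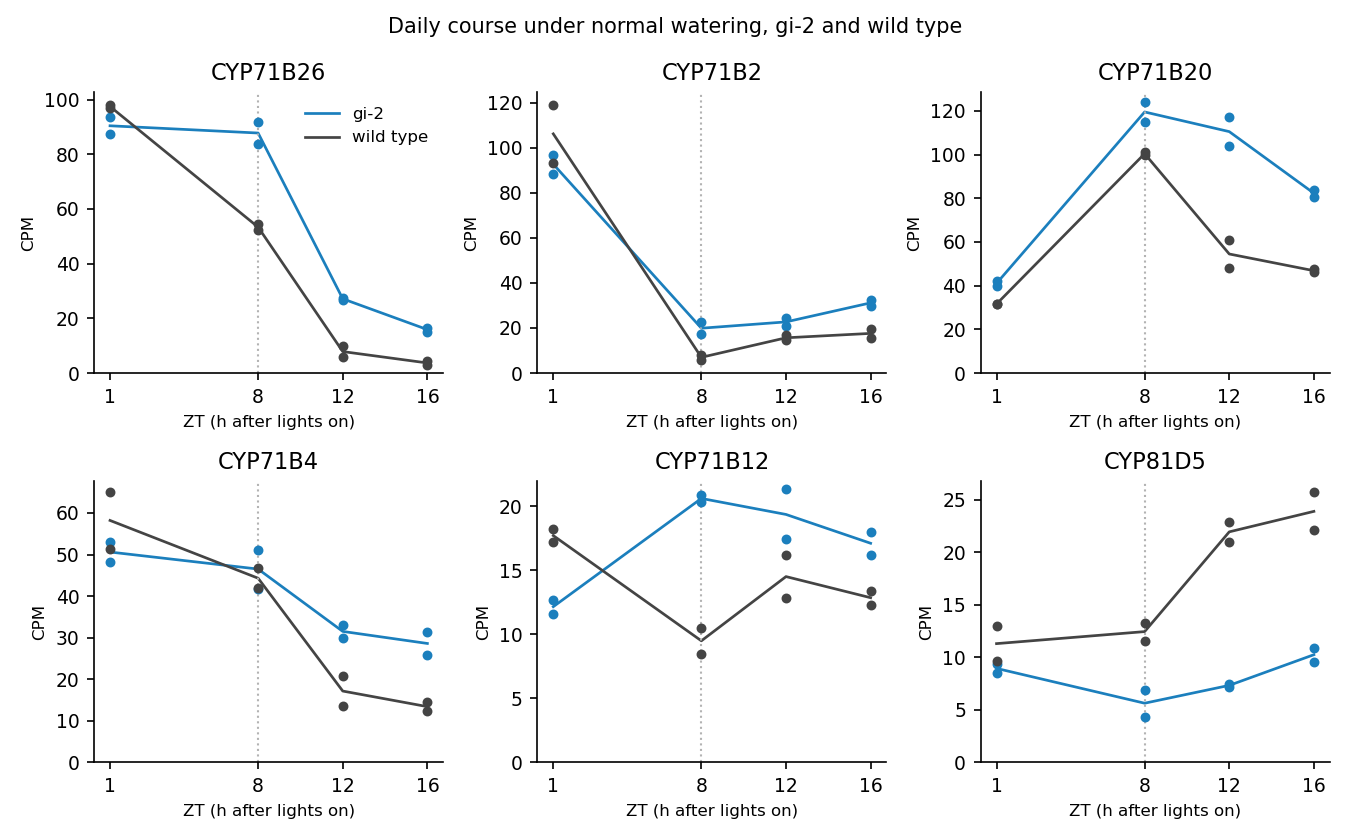
CPM at ZT1, ZT8, ZT12 and ZT16 under normal watering of 6 members whose daily course differed between gi-2 (blue) and wild type (grey), with points for the 2 libraries of a group, lines through their means and a dotted line at the end of the usual 8 h day. In gi-2 CYP71B26 stays near its ZT1 level at ZT8 (91.6 and 83.9 CPM), where wild type is at 52.3 and 54.4 CPM.

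The promoters of 4 of these 7 genes are printed because each holds a clock- or light-linked motif. The windows are the 250 bases before the annotated start in the RefSeq genome TAIR10.1, 5′ to 3′ on the gene's strand: chr3:9634823-9635072 (minus) for CYP71B26, chr3:9580114-9580363 (minus) for CYP71B20, chr4:17561976-17562225 (minus) for CYP81D5 and chr1:4458752-4459001 (plus) for CYP71B2. Capitals mark the evening element AAATATCT in the first 3, where it reads AGATATTT, its reverse complement. In CYP71B2 they mark the G-box CACGTG and the ABA-response core ACGTGT, which overlap there, the core on the other strand:
CYP71B26: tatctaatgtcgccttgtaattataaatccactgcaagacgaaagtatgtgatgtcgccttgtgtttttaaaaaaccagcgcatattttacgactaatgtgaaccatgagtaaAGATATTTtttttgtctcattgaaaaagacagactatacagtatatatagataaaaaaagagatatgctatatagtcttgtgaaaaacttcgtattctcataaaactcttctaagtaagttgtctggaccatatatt
CYP71B20: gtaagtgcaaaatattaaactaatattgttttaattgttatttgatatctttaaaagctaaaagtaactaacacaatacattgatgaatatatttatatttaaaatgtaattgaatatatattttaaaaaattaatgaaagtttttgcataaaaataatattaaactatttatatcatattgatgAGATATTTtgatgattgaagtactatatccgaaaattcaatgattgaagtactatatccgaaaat
CYP81D5: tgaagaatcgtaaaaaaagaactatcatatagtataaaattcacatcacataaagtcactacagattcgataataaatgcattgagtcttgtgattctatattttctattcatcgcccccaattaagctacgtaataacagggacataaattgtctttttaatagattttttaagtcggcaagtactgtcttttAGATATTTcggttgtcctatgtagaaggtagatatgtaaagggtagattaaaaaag
CYP71B2: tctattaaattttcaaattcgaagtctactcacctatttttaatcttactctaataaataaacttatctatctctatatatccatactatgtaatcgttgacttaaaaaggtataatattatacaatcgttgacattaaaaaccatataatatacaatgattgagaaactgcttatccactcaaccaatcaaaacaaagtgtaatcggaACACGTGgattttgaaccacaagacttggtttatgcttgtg
The evening element lay 137, 65 and 56 bases before the start in CYP71B26, CYP71B20 and CYP81D5. It occurred in 3 of the 7 genes, in 7 of the 107 members (6.54%) and in 4.79% of 27443 protein-coding genes, searched on both strands in windows of the same length. Among the 54 members called for time of day in wild type, 4 held it (7.41%). The G-box of CYP71B2 lay 40 bases and the ABA-response core 41 bases before the start, and these letters occurred in 6.49% and 10.5% of all genes. No evening element, G-box, ABA-response core or W-box was in the windows of CYP71B4, CYP71B7 and CYP71B12. The E-box CANNTG, which is held by 55.3% of all genes, was in 60 of the 107 windows (56.1%). A match describes the letters of a window and is not evidence of a bound site.

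The P450 reductase gene ATR1 had 62.3, 99.4 and 123 CPM in droughted wild type, against 87.9, 113 and 147 CPM in watered wild type, and its fold of -0.18 did not pass (adjusted p = 0.0946). Of 8 tested genes for P450 reductases, cytochrome b5 and its reductase, 1 differed between watered gi-2 and wild type, the cytochrome b5 gene CB5-C (-0.53), and 3 did under drought, ATR1 (0.22), CB5-C (-0.56) and CB5-E (-0.18), where 12.7% and 28.7% of all genes were called. In aba1-6 against wild type 1 differed under normal watering, CB5-D (0.2), and 1 under drought, CB5-C (-0.31), where 17% and 22.6% of all genes were called.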

How the data were processed

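The authors deposited expected counts per gene from poly(A) RNA in 1 table with a column per library, and per the submitters' processing notes reads were handled with Bowtie2, RSEM and edgeR on TAIR10. No source used here gives versions or the use of strand. Each data line of the table ends in an extra tab, so columns were read from the left, which matters for the last column, gi-2 drought ZT16 replicate 2. These counts were rounded and fitted with edgeR 4.0.16 in R 4.3.3: low-count filter, TMM scaling (factors 0.862 to 1.135), 24 group means, robust quasi-likelihood F-tests with 24 residual degrees of freedom, and Benjamini-Hochberg adjustment over 19037 genes, with calls under 0.05. The biological coefficient of variation was 12.1%. Contrasts average 4 times, and the 2 tests over time use F-tests. The fit was also run on simulated counts with known folds for drought in wild type. Its test recovered 27 of 48 genes changed by 0.5 on the log2 scale (56.2%). It recovered 84 of 97 changed by 1 and 47 of 49 changed by 2, and called 8 unchanged genes. The simulated counts held no other difference by genotype, time or replicate number, so they do not cover such differences. P-values measure the spread between libraries, which may be technical in part. Members and gene lists were chosen with earlier results of these data known. Named genes were those with the largest folds or ratios among the called members, besides role and pathway lists. Alternatives were DESeq2 1.42.0, library totals, no filter, a replicate block, only the compared libraries, and leaving out libraries. CPM of single genes uses TMM-scaled totals, while the marker sums use the unscaled library totals.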

Additional observations from a re-analysis of the deposited data

Results flagged for a closer look

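The effect of drought differed between gi-2 and wild type in 9 of the 107 P450 genes, by a test of the difference itself (8.41%, against 6.96% of all genes, so the share is near that of all genes). The difference, on the log2 scale, was 0.51 for CYP706A1, 0.51 for CYP71B12, 0.5 for CYP86A8 of cutin synthesis, 0.47 for CYP706A6 and 0.39 for CYP71B7. It was -1.48 for CYP722A1, -1.18 for CYP71A19, -0.53 for CYP705A19 and -0.42 for CYP71B26. Between aba1-6 and wild type it differed in 2 genes (1.87%, against 2.74%), CYP706A6 (0.47) and CYP81H1 (-0.37). Both counts were higher with no filter on low counts, or with a block for the replicate number.

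The course over the day under normal watering differed between gi-2 and wild type in 7 genes (6.54%, against 3.75%). This count rose with the same changes of the fit. The adjusted p of edgeR's quasi-likelihood test was 1.96e-08 for CYP71B26, 5.35e-06 for CYP71B2, 0.000692 for CYP71B12, 0.00232 for CYP71B4, 0.00593 for CYP71B20, 0.0236 for CYP81D5 and 0.0276 for CYP71B7.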

How the results depend on the processing

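Leaving out 1 library at a time, with the genes and the dispersion trend of the full fit kept, called 26 to 34 members for drought in wild type. For drought the range was 10 to 14 members in gi-2 plants and 11 to 16 members in aba1-6 plants. It called 24 to 31 for gi-2 over wild type under normal watering and 41 to 50 under drought, 26 to 33 for aba1-6 over wild type under normal watering and 35 to 45 under drought. The differences in drought effect gave 8 to 14 members for gi-2 (14 without wild-type drought ZT12 replicate 1) and 1 to 5 for aba1-6, time of day 43 to 56 and the time course in gi-2 5 to 8. These ranges count members alone and are not set against the share of all genes in the same fits. They do not show whether the calls of all genes moved alike. Drought in gi-2 was lowest without gi-2 normal ZT1 replicate 1. Of the 78 members of at least 5 CPM, drought called 19 in wild type and 9 in gi-2. Over all 19037 tested genes, 23% and 5.17% were called. That share has no limit of 5 CPM, so the 2 sets are not matched by level and no excess of members is read from them. When the fit held the compared libraries alone, drought called 18 in wild type and 33 in gi-2. Without a filter on low counts the drought differences gave 14 for gi-2 and 9 for aba1-6, and the time course 16. DESeq2 gave 4 for the aba1-6 difference, again without the share of all genes. The replicate block gave 19 and 8 for the 2 drought differences and 15 for the time course. The share of all genes under that block is not given here, so these counts cannot be told from a general rise in calls. Between the groups of a genotype, the differences of replicate 1 and 2 correlated over 0.1 in 23 of 28 pairs in wild type (lowest 0.065). In each mutant 1 of 28 did, and the numbers are not taken to pair the samples in the main fit. Any effect that wild-type libraries of 1 number share thus stays in its spread between libraries. A group was taken to go with its numbers where its difference correlated positively with the mean difference of the other groups of its genotype. That held for 16 of 16 libraries in wild type and 12 of 16 in each mutant, the 2 of a group always counting together. The causes were not tested. Of 602 named calls, 369 passed under each alternative run. PAD3 with drought in aba1-6 changed sign without aba1-6 normal ZT12 replicate 2 (0.33, adjusted p = 0.897), and its fold ran from -2.57 to 0.33 over the libraries left out. DESeq2 was not run for the 2 tests over time. Genes under a few CPM, such as CYP82G1 and CYP94B3, are limited by depth.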
